A study of Mus musculus with 24 samples.

Results

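Running mice were compared with sedentary mice in the RNA that came down with tagged ribosomes from the dentate gyrus, the region of the hippocampus that adds neurons in adult life. The comparison used 12 of the 24 libraries of the study, which are the libraries of the ribosome precipitate (IP). Of these, 6 came from running mice, which carry the letters a and b (day 11), c and d (day 18) or e and f (day 27), and 6 came from sedentary mice with the same letters on the same days. The other 12 libraries hold dentate gyrus RNA without precipitation (input) and were used only to set the differences in the IP beside those in the tissue. All mice were female, of the C57BL6 strain, and carried Tg(Nes-cre/ERT2) together with RPL22HA/WT. In such mice a Cre recombinase is made from Nestin regulatory sequence, which is used by neural stem cells, and acts only after tamoxifen, which running and sedentary mice both received on 5 days at 160 mg/kg from an age of 9 to 11 weeks. The recombined cells and their descendants then carry a haemagglutinin tag on the ribosomal protein Rpl22, so that any progeny of Nestin-expressing cells, glial or neuronal, is tagged. Running mice lived singly with a wheel whose turns were monitored, and sedentary mice in the same kind of cage with the wheel glued in place. How many mice a library holds, and whether the libraries within a group are of different mice, is not given in the labels. The p-values therefore measure only the spread between these libraries, which may be technical.

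Voluntary running is known to raise the number of new granule neurons in the adult dentate gyrus and to raise the growth factor Bdnf in the hippocampus. New neurons pass from dividing stem and progenitor cells through a calretinin-positive immature stage to granule neurons that receive excitatory and inhibitory synapses. Precipitated ribosomes are meant to report the messages that tagged cells hold for translation. The IP libraries also held RNAs that are not translated, such as Rpph1 and Malat1, and markers of microglia. How much of their RNA came from untagged cells was not tested. A lower level can come from fewer tagged cells of a type or from less RNA per cell, which cannot be told apart in these libraries.

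Values are TPM, the length-adjusted share of each gene in a fixed library total, which carry no read depth, and differences are running minus sedentary on the log2(TPM + 1) scale. Replicate libraries of a group correlated at 0.968 to 0.980 over all genes tested. Running library a of day 11 stood apart, with Rpph1, the RNA of ribonuclease P, at 17.4% of its TPM against 4.58 to 9.16% in the other 11 IP libraries. Its median gene stood at 6.20 TPM, against 7.42 to 9.50 TPM in the others. The median difference over all genes was −0.23 for letter a and −0.09 to 0.03 for the other 5 letters, and −0.07 in the mean of the days. Median-of-ratios scaling, which divides each library by its median ratio to the mean library, moved it to −0.01. Results are therefore given under both scalings where they differ. The precipitate was labelled as immature neurons. Summed over 18 immature neuron markers it held 4772 to 9307 TPM in running libraries and 4292 to 6245 TPM in sedentary libraries, and summed over 20 astrocyte markers 4008 to 5901 TPM in running libraries and 5266 to 7522 TPM in sedentary libraries. No member of either list was at 0 in any IP library.

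Few single genes passed a test. With limma and Benjamini-Hochberg adjustment over 17282 genes, 1 gene (0.00579%) had an adjusted p under 0.05 in the mean of the 3 days, 0 (0.0%) at day 11, 0 (0.0%) at day 18 and 5 (0.0289%) at day 27. Unadjusted p-values under 0.05 numbered 2453, 832, 1550 and 1714 in the same order. With median-of-ratios scaling 3 genes passed in the mean of the days, and with genes restricted to a mean of at least 5 TPM 11 passed. With the library letter as a replicate block 440 passed, 125 higher and 315 lower, though the labels do not say that letters mark pairs. Without running f 22 passed, without running b 6, without sedentary c 4, without running d 3 and without running c, sedentary e or sedentary f 2 each, and without both letter a libraries of day 11 the count was 0. Agreement over the days was therefore also described without a test, by asking for which genes both running libraries lay above, or both below, both sedentary libraries on each day.

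By that measure 58 genes (0.336% of those tested) were higher and 446 (2.58%) lower in running mice on all 3 days. After median-of-ratios scaling 170 genes (0.984%) were higher and 348 (2.01%) lower, so that the higher genes made up 32.8% of those without overlap instead of 11.5%. Under both scalings 40 genes were higher and 253 lower. Letter by letter, 242 genes (1.4%) were higher in running mice in all 6 letters and 1601 (9.26%) were lower, against 957 and 945 after scaling. In the input 63 of the same genes (0.365%) were higher and 138 (0.799%) lower on all 3 days. On single days the arms of the IP did not overlap for 1170 higher (6.77%) and 3894 lower genes (22.5%) at day 11, for 3721 (21.5%) and 4115 (23.8%) at day 18, and for 2995 (17.3%) and 4936 (28.6%) at day 27. Of the 1170 genes higher at day 11, 111 (9.49%) were also higher at day 27 and 442 were lower there, whereas 1299 of the 3721 genes higher at day 18 (34.9%) were higher at day 27.

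Single libraries weighed on these counts. The number of higher genes on all 3 days became 554 without running a, 349 without sedentary a, 136 without running b, 127 without running f, 97 without sedentary e and 91 without sedentary b. The number of lower genes became 1100 without running f, 1069 without running b, 903 without sedentary a and 793 without sedentary e. A day with 1 library in an arm is also an easier condition to meet. In all letters left, 1734 genes were higher without running a and 1734 without sedentary a, 516 without running f and 502 without sedentary f, and 2490 genes were lower without running f and 2485 without sedentary f. Without both day 11 libraries of letter a, 977 genes were higher and 938 lower on all 3 days.

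**Figure D1:**
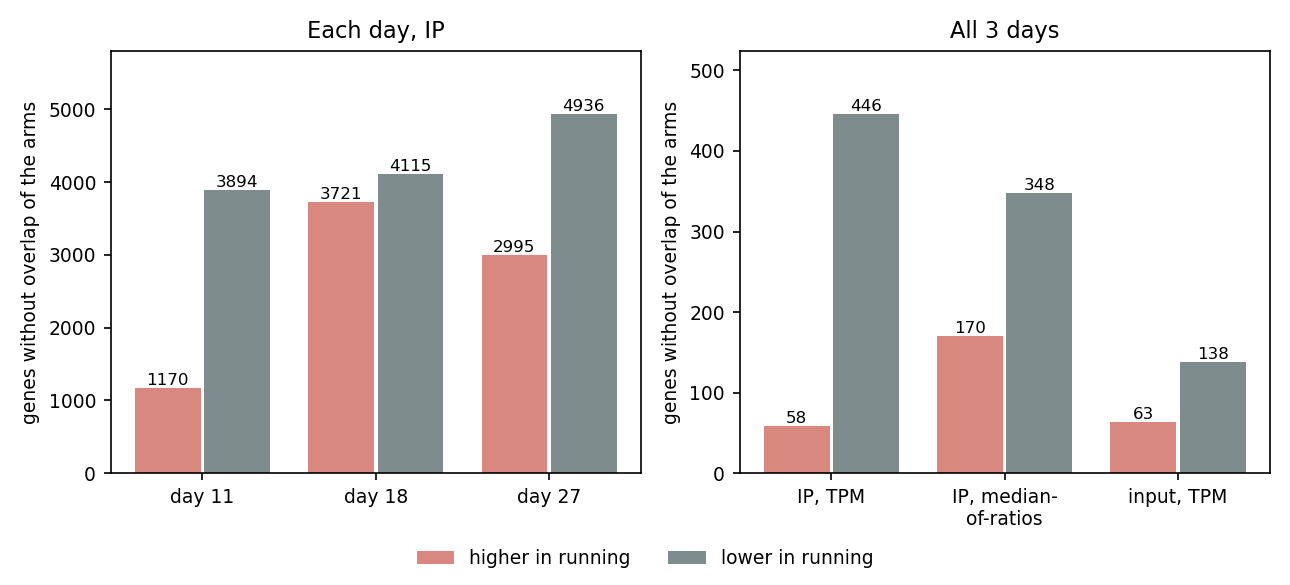
Number of genes whose running and sedentary libraries did not overlap, higher or lower in running mice, on each day in the IP (left) and on all 3 days (right) in the IP, in the IP after median-of-ratios scaling and in the input. On all 3 days 58 genes were higher and 446 lower in the IP, and scaling changed these counts to 170 and 348.

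The gene that passed in the mean of the days was Snora16a, a small nucleolar RNA of the H/ACA class, which guides the conversion of uridine to pseudouridine in other RNAs. It lies on the plus strand of chromosome 4 within the span of the non-coding gene Snhg12 (GRCm38.p6). GENCODE M21 holds 2 overlapping entries of this name that differ in length by 1 base, so its value is uncertain if reads were split between such entries. Which entry lies behind the deposited value is not known. The longer entry has 137 bases (GRCm38 chr4:132309464-132309600) and is shown because a gene of this name passed in the mean of the days. Its ACA box, which stands 3 bases from the 3' end, is in capitals.
Snora16a: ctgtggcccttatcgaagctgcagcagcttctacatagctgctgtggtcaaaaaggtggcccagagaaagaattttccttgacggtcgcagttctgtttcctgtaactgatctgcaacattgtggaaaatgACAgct
At day 11 Snora16a stood at 9.05 and 8.62 TPM in running libraries, against 18.4 and 18.0 TPM in sedentary libraries. At day 18 it stood at 4.50 and 4.73 TPM in running libraries, against 4.16 and 5.18 TPM in sedentary libraries. The running pair of day 27 was listed at 0, beside 8.80 and 9.36 TPM in the sedentary pair. The arms were thus apart at days 11 and 27 and overlapped at day 18, so the gene is not among those without overlap on all 3 days. The mean difference was −1.44 ± 0.15 (SE, limma adjusted p = 0.00105), and the difference between the days also passed (F test, adjusted p = 0.00702), the only gene of 17282 to do so (0.00579%; 934 had an unadjusted p under 0.05). A fitted difference for a gene listed at 0 depends on the pseudocount, and no depth is known behind the 0. Snora16a also passed at day 27 alone (limma adjusted p = 1.89e-05). Of the other genes past the threshold at day 27, named because the count is small, the microRNA gene Mir326 stood at 12.0 and 10.4 TPM in running libraries and was listed at 0 in both sedentary libraries. Mir690 was listed at 0 in both running libraries, beside 5.86 and 6.24 TPM in the sedentary pair, and both microRNA genes were listed at 0 in all IP libraries of the earlier days. The unnamed gene models Gm13278 and LOC100861615 were lower. In the input Snora16a averaged 15.1 ± 17.4 TPM in running and 23.6 ± 15.9 TPM in sedentary libraries (SD, n = 6 each). The call was lost with all 24 libraries in the fit (adjusted p = 0.359), without day 11 (0.0851), without day 27 (0.395) and without both letter a libraries of day 11 (0.0909).

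The genes that were higher in running mice on all 3 days included those of the neurotrophin Bdnf, the opioid precursor Penk, the GABA receptor subunit Gabra5 and the calcium-binding protein calretinin. Their number on the deposited TPM is below what relabelling the libraries within days gives on average. The 170 higher genes after median-of-ratios scaling and the 446 lower genes are above it. These numbers were not tested, so membership by itself does not show a running effect. Of the 58, 55 code for proteins and 2 are on the cell type marker lists, beside 14956 and 227 of all 17282 genes tested. Among those of the 58 with a proper gene name and at least 5 TPM in the higher arm, the 15 largest differences are named here. They ran from 0.43 to 1.13, with none past the threshold (limma adjusted p from 0.0635 to 0.21). After median-of-ratios scaling 14 of these genes were without overlap as well, the exception being Fam163b.

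Among the signals was Bdnf, the neurotrophin that supports survival and synaptic growth of neurons through the receptor TrkB. Bdnf stood at 27.2 and 24.8 TPM in running libraries against 20.8 and 23.2 TPM in sedentary libraries at day 11. Day 18 gave 39.6 and 33.2 TPM in running libraries, beside 19.7 and 26.4 TPM in sedentary libraries, and the day 27 values 48.2 and 41.5 TPM in running libraries, beside 33.8 and 29.7 TPM in sedentary libraries. The arms lay closest at day 11, the highest levels of both arms were at day 27, and the mean difference was 0.45 ± 0.11 (SE, limma adjusted p = 0.145). Penk, the precursor of the enkephalin opioid peptides, stood at 31.5 and 27.6 TPM in running libraries against 22.6 and 17.5 TPM in sedentary libraries at day 11. On day 18 there were 24.9 and 18.1 TPM in running libraries, beside 14 and 13.8 TPM in sedentary libraries, and the day 27 values 30.2 and 21.8 TPM in running libraries, beside 19.6 and 12.8 TPM in sedentary libraries. Its difference was nearly the same on each day, 0.55, 0.58 and 0.66, and averaged 0.60 ± 0.14 (SE, limma adjusted p = 0.145).

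Among receptor and channel genes of the set was Gabra5. On the lists of such genes 8 of 17 GABA receptor genes, 4 of 25 glutamate receptor genes, 29 of 86 potassium channel genes and 13 of 42 sodium and calcium channel genes had a positive difference, beside 36.3% of all genes. Gabra5, the alpha 5 subunit of GABA-A receptors that lie largely outside synapses, stood at 101 and 116 TPM in running libraries against 88.4 and 89.3 TPM in sedentary libraries at day 11. The day 18 values were 118 and 90.3 TPM in running libraries, beside 74.1 and 64.7 TPM in sedentary libraries, and the day 27 values 164 and 137 TPM in running libraries, beside 103 and 109 TPM in sedentary libraries. Syndig1, a membrane protein that associates with AMPA receptors at developing synapses, ranged from 28.5 to 51.8 TPM (median 39.0) in running libraries and from 23.1 to 29.6 TPM (median 25.9) in sedentary libraries. Lrrc55, an auxiliary subunit of BK potassium channels, averaged 23.3 ± 5.98 TPM in running and 16.2 ± 3.55 TPM in sedentary libraries (SD, n = 6 each). The differences were 0.45 ± 0.09 for Gabra5, 0.57 ± 0.11 for Syndig1 and 0.48 ± 0.12 for Lrrc55 (SE, limma adjusted p = 0.135, 0.135 and 0.162). Acvr1c, a type I receptor for activins and Nodal, averaged 18.2 ± 2.26 TPM in running and 13 ± 1.42 TPM in sedentary libraries, with every running library at 15.7 TPM or more and every sedentary library at 15.3 TPM or less (0.45 ± 0.11, SE, limma adjusted p = 0.162). The orphan G protein-coupled receptor gene Gpr139 ranged from 2.91 to 10.4 TPM in running and from 1.11 to 8.49 TPM in sedentary libraries, so its arms were apart only within days.

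Rgs6, which speeds the shut-off of G protein signals, was among the genes nearest to the threshold. It stood at 26.2 and 35.4 TPM in running libraries against 19.7 and 23 TPM in sedentary libraries at day 11. Day 18 gave 45.9 and 36.8 TPM in running libraries, beside 20.8 and 20.9 TPM in sedentary libraries, and the day 27 values 40.1 and 31.3 TPM in running libraries, beside 20.3 and 21.2 TPM in sedentary libraries. The lowest running library exceeded the highest sedentary library of any day. The difference was 0.73 ± 0.11 (SE, limma adjusted p = 0.0635), and the scaled values gave 0.79, which passed (limma adjusted p = 0.0159). Calb2 encodes calretinin, the calcium-binding protein of immature granule neurons, and is on the immature neuron marker list. It stood at 457 and 463 TPM in running libraries against 368 and 192 TPM in sedentary libraries at day 11. On day 18 there were 549.5 and 324 TPM in running libraries, beside 138 and 116 TPM in sedentary libraries, and the day 27 values 247 and 131 TPM in running libraries, beside 129.6 and 119.5 TPM in sedentary libraries. The gap was widest at day 18, and the mean difference was 1.01 ± 0.20 (SE, limma adjusted p = 0.142).

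Among the remaining genes, Tnnt2, the troponin T of heart muscle, had the largest difference of the 15, 1.13 ± 0.25 (SE, limma adjusted p = 0.145), with 6.82 to 14.7 TPM (median 9.10) in running and 2.34 to 8.20 TPM (median 4.02) in sedentary libraries. Mylk3, the myosin light chain kinase known from heart muscle, ranged from 7.83 to 10.1 TPM in running and from 3.59 to 6.89 TPM in sedentary libraries, and its arms did not overlap across the days (0.85 ± 0.15, SE, limma adjusted p = 0.0635). Tubb4a, a beta-tubulin of neurons and myelinating cells, averaged 380.4 ± 68.7 TPM in running and 279 ± 24.4 TPM in sedentary libraries (SD, n = 6 each). The difference was 0.78 for Lor, an envelope protein of skin keratinocytes, 0.45 for Fam49a, whose product binds the GTPase Rac1, and 0.44 for Fam163b. Reads of Mylk3, Rgs6, Penk, Syndig1, Lrrc55, Bdnf, Acvr1c, Gabra5 and Fam49a may include those of overlapping genes on the other strand, since the strand setting of the counting is not given in the sources used here.

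**Figure D2:**
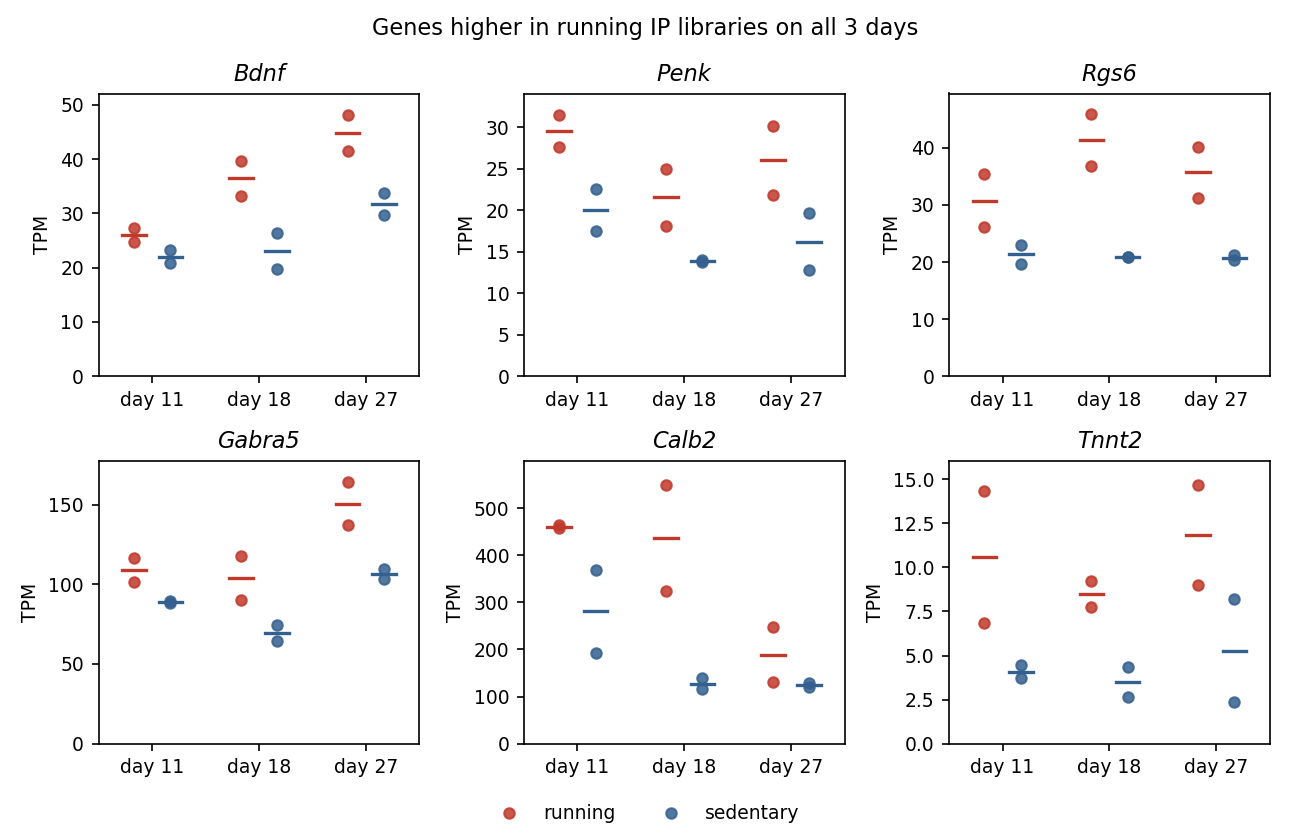
TPM of 6 genes in each IP library by day, running left of sedentary, with a bar at the mean of the 2 libraries of a group. In each panel both running points lie above both sedentary points on each day, as for Bdnf at day 27 with 48.2 and 41.5 TPM in running and 33.8 and 29.7 TPM in sedentary libraries.

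Bdnf is transcribed from several starts, and the gene total in the table does not tell them apart. RefSeq lists 7 starts of Bdnf, and 1 holds TGACG or its complement CGTCA, the half-site of the cyclic AMP response element through which activity acts on this gene, within 250 bases before and 50 after the start. It is shown for that reason (GRCm38.p6 chr2:109692186-109692485, plus strand), with the half-site in capitals.
Bdnf: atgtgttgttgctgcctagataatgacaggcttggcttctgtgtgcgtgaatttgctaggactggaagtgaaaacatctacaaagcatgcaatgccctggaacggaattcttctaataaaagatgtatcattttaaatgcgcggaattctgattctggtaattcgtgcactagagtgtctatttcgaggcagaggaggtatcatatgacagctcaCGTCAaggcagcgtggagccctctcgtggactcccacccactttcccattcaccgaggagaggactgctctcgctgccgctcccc
Among all promoters of that length given by RefSeq, 20.8% hold the half-site on either strand. Of the 15 named genes 11 have an entry and 4 of these (36.4%) hold it in at least 1 promoter, as do 23% of all genes with an entry. These 11 genes have 20 promoters, of which 4 (20.0%) hold it, close to the share of all promoters. Among the genes lower on all 3 days it is held by 88 of 313 with an entry (28.1%). These are counts of letters and not of bound sites.

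Among the 446 genes that were lower in running mice on all 3 days were Thbs4, Abca8a and Nos1. Over both arms and all days, the mean log2 level in the IP minus that in the input had a median of 0.48 for the 446 genes, with 352 above 0. For all genes tested the median was 0.22, with 11241 of 17282 above 0, and for the 58 higher genes it was −0.08, with 20 above 0. These are differences of level between the fractions and not running effects. The lower set held 387 protein-coding genes and 11 cell type markers, beside 14956 and 227 among all 17282 genes tested. The 15 largest differences among genes with a proper name and at least 5 TPM in the higher arm ran from −0.64 to −0.84, and none passed (limma adjusted p from 0.0635 to 0.25). Gstt1, Vaultrc5, Lgals1, Cideb and Nos1 no longer met the condition after median-of-ratios scaling.

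Thbs4, a thrombospondin of the extracellular matrix made by astrocytes, stood at 16.8 and 27.2 TPM in running libraries against 43.6 and 51.8 TPM in sedentary libraries at day 11. The day 18 values were 26.2 and 28.7 TPM in running libraries, beside 45.4 and 35.2 TPM in sedentary libraries, and the day 27 values 14.1 and 20.1 TPM in running libraries, beside 30.5 and 31.0 TPM in sedentary libraries. No running library of any day reached the lowest sedentary library. The difference was −0.82 ± 0.13 (SE, limma adjusted p = 0.0635), and it passed under median-of-ratios scaling at −0.76 (limma adjusted p = 0.033). Abca8a, a lipid transporter of the ABC family, ranged from 9.81 to 16.4 TPM (median 14.6) in running and from 19.9 to 33.0 TPM (median 23.4) in sedentary libraries, again without overlap across days (−0.84 ± 0.14, SE, limma adjusted p = 0.0635). Nos1, the neuronal nitric oxide synthase, stood at 11.3 and 12.2 TPM in running libraries against 19.8 and 23.9 TPM in sedentary libraries at day 11. Day 18 gave 12.9 and 15.7 TPM in running libraries, beside 25.3 and 27.0 TPM in sedentary libraries, and the day 27 values 21.1 and 25.7 TPM in running libraries, beside 29.5 and 26.3 TPM in sedentary libraries. Its arms came close at day 27, and the mean difference was −0.64 ± 0.11 (SE, limma adjusted p = 0.0635).

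The other named genes have varied roles. Adhfe1, a mitochondrial enzyme that converts hydroxybutyrate, averaged 7.22 ± 2.47 TPM in running and 12.1 ± 2.04 TPM in sedentary libraries (SD, n = 6 each, also below). Agxt2l1, a phosphoethanolamine lyase of astrocytes, averaged 3.79 ± 1.15 TPM in running and 6.61 ± 0.771 TPM in sedentary libraries. Pxmp2, a channel of the peroxisomal membrane, averaged 5.42 ± 1.28 TPM in running and 9.12 ± 1.27 TPM in sedentary libraries. These genes had low levels, as had Gstt1, a glutathione transferase, Sec1, a fucosyltransferase, Atp6v1c2, a subunit of the vacuolar proton pump, Cideb, a protein of lipid droplets, Cd72, a receptor of B cells, Abhd1 and Tmem243. In these 7 genes the running means lay between 2.71 and 9.00 TPM, the sedentary means between 5.40 and 13.8 TPM and the differences between −0.84 and −0.64. Lgals1, the lectin galectin-1, averaged 6.87 ± 4.09 TPM in running and 10.9 ± 3.65 TPM in sedentary libraries, with differences of −0.23 at day 11, −0.75 at day 18 and −1.24 at day 27. The vault RNA Vaultrc5, a short non-coding RNA, ranged from 82.8 to 174 TPM in running and from 139.6 to 358 TPM in sedentary libraries. Abhd1, Sec1, Cideb, Cd72, Adhfe1, Atp6v1c2, Pxmp2, Tmem243 and Nos1 overlap a gene on the other strand.

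**Figure D3:**
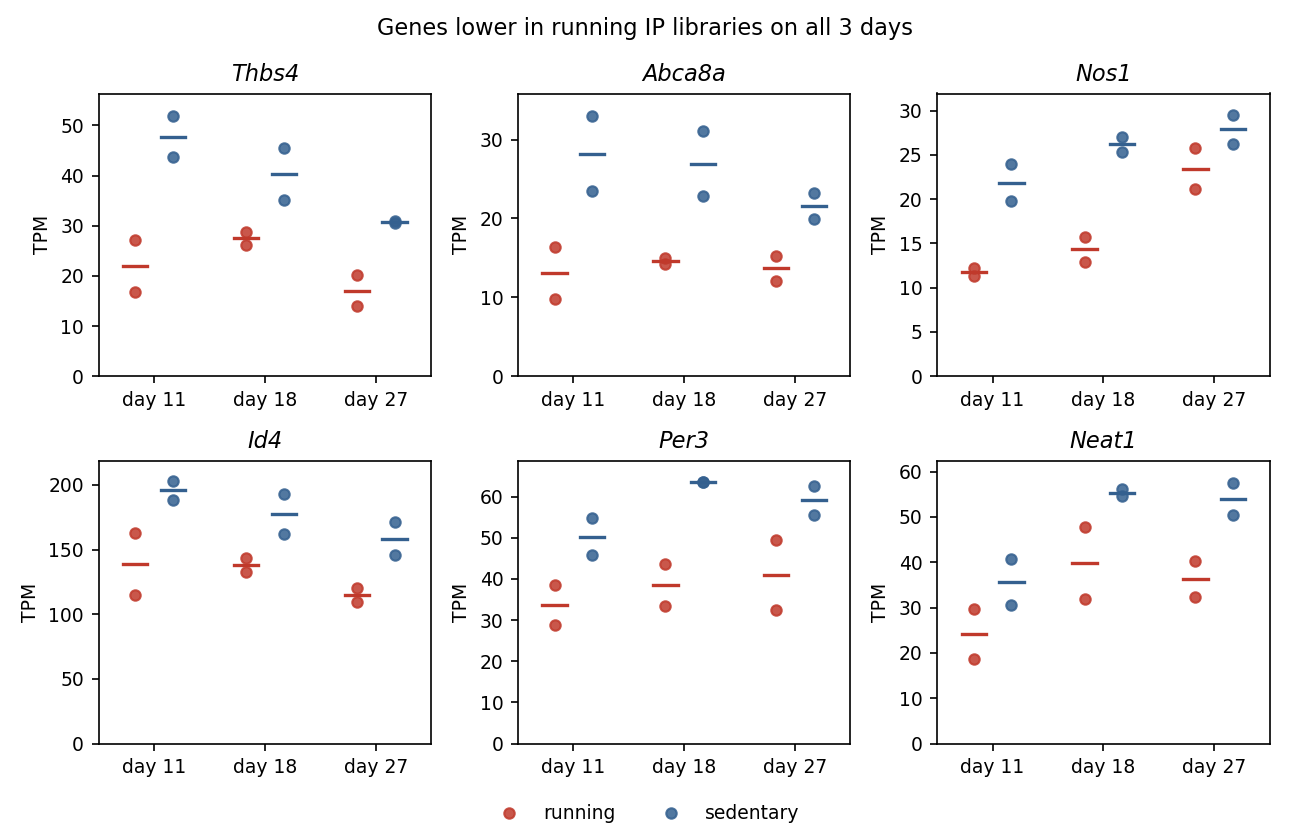
TPM of 6 genes in each IP library by day, running left of sedentary, with a bar at the mean of the 2 libraries of a group. Both running points lie below both sedentary points on each day, as for Thbs4 at day 27 with 14.1 and 20.1 TPM in running and 30.5 and 31.0 TPM in sedentary libraries.

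The input showed a difference of like size for some of the named genes and one near 0 for others. Tnnt2, Mylk3, Bdnf and Lrrc55 were higher in running mice in all 6 letters of the input as well, with input differences of 1.10 ± 0.26, 1.07 ± 0.13, 0.31 ± 0.11 and 0.40 ± 0.12 (SE). Penk and Acvr1c were higher in 5 of 6 letters (0.60 ± 0.12 and 0.41 ± 0.12, SE). The input difference of Mylk3 passed the threshold (limma adjusted p = 0.00232). Penk averaged 97.25 TPM in running and 61.6 TPM in sedentary input libraries, above its IP means of 25.7 and 16.7 TPM. Bdnf averaged 53.4 and 43.0 TPM there, above 35.75 and 25.6 TPM in the IP. Tnnt2, Mylk3 and Acvr1c also had higher means in the input than in the IP, and Lrrc55 had lower ones. Whether the IP values of these genes come from tagged cells was not tested. Input differences of Rgs6, Gabra5, Tubb4a, Fam49a and Calb2 were −0.01 ± 0.11, 0.01 ± 0.11, 0.01 ± 0.11, −0.03 ± 0.10 and −0.11 ± 0.17 (SE). Calb2 averaged 186 ± 51.5 TPM in running and 199 ± 47.3 TPM in sedentary input libraries (SD, n = 6 each), a tissue in which other neurons also make it. Among the lower genes Nos1 and Sec1 were lower in all 6 letters of the input, Nos1 at 23.4 ± 3.9 TPM in running and 34 ± 3.73 TPM in sedentary input libraries, while Abhd1 and Cd72 were higher in 5 of 6 letters there.

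The difference between the fractions was itself tested, and 0 of 19507 genes passed (0.0%, limma), with 1166 at an unadjusted p under 0.05. IP and input libraries that share a letter were fitted as independent, so any pairing between them was not used. The lowest p-values belonged to Ccdc8, Plin5 and Calb2. For Ccdc8 the running effect in the IP minus that in the input was −1.02 ± 0.20 (SE). It averaged 8.78 ± 1.97 TPM in running and 13.6 ± 1.94 TPM in sedentary IP libraries, and 6.0 ± 0.940 TPM in running and 4.25 ± 1.09 TPM in sedentary input libraries (SD, n = 6 each). For Plin5, a coat protein of lipid droplets, the IP minus input difference was −1.40 ± 0.29, and for Calb2 it was 1.13 ± 0.24 (SE, limma adjusted p = 0.595 for each of the 3). Without day 11, the day of running library a, 204 of 20563 genes passed, 25 with a higher and 179 with a lower running effect in the IP. Over the 3 days this unpaired fit does not show a difference between the fractions for any gene that differs in the IP and hardly in the input. Of the whole sets, 32 of the 58 higher genes had a positive input difference and 3 were higher without overlap on all 3 days there, and 126 of the 446 lower genes had a positive input difference and 21 were lower without overlap. Among all genes tested 7771 of 17282 (45.0%) had a positive input difference.

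**Figure D4:**
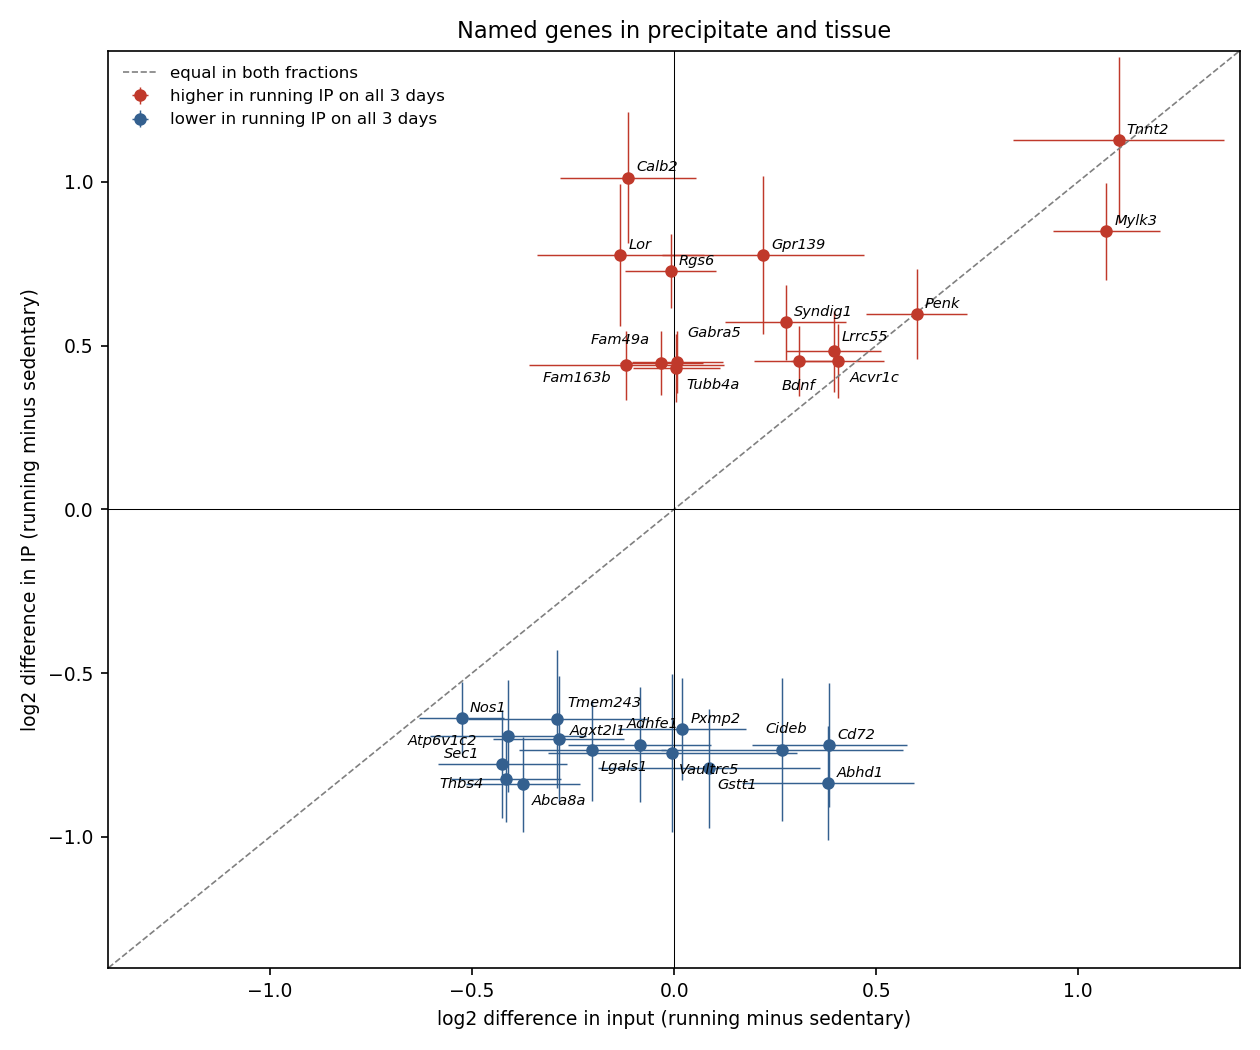
Log2 difference of the 30 named genes in the IP (vertical axis) against that in the input (horizontal axis), with standard errors. Tnnt2, Mylk3, Penk, Acvr1c and Lrrc55 lie near the line of equality, and Calb2 (1.01 in the IP and −0.11 in the input) lies far from it.

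Gene functions were described over 64 lists with at least 5 tested members. For each list the median difference was taken in each letter, beside the all-gene medians given above and the 6281 of 17282 genes (36.3%) with a positive mean difference. Apart from Snora16a on the list of small nucleolar RNAs, no member of these lists passed limma's test in the mean of the days. In 6 lists the median was below 0 in all 6 letters, namely BMP and TGF-beta signalling, hedgehog signalling, neuropeptides, clock genes, nuclear retained RNAs and zinc finger proteins, and in 0 lists it was above 0 in all 6. After median-of-ratios scaling it was below 0 in all 6 letters for BMP and TGF-beta signalling, hedgehog signalling, nuclear retained RNAs, extracellular matrix, and fatty acid oxidation, and above 0 in all 6 for 9 lists. Apart from these lists and those of neurotrophin, insulin and IGF, growth factor and activity-regulated genes, described next in any case, the other 43 lists had medians between −0.43 and 0.20.

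Neurotrophin signalling held Bdnf beside members that did not follow it. Of 18 genes 6 had a positive difference and the median was −0.05. Without overlap on all 3 days 2 were higher (11.1%, beside 0.336% of all genes) and 0 lower. The second, Nrn1, the neurite-growth protein neuritin, is named because the count is small. It ranged from 194 to 271 TPM in running and from 167 to 215 TPM in sedentary libraries, with a difference of 0.16 ± 0.09 (SE, limma adjusted p = 0.393) that no longer met the condition after scaling. Ntf3, the neurotrophin of the receptor TrkC, stood at 19.6 and 19.2 TPM in running libraries against 20.7 and 25.5 TPM in sedentary libraries at day 11, and at 54.0 and 45.0 TPM in running libraries, beside 29.7 and 36.7 TPM in sedentary libraries, at day 27, so the running libraries lay below at day 11 and above at day 27. Vgf, a secretory protein that Bdnf induces, was higher in 5 of 6 letters (0.30 ± 0.15, SE, limma adjusted p = 0.372), and Gab1, an adaptor below Trk receptors, was lower in 5 (−0.27 ± 0.14, SE, limma adjusted p = 0.381).

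Activity-regulated genes were split between both directions. Of 35 genes 18 had a positive difference and the median was 0.00. Without overlap on all 3 days 2 were higher (5.71%, beside 0.336% of all genes), again Bdnf and Nrn1, which are on both lists. The 3 members of lowest p besides Bdnf code for immediate early transcription factors. Fos averaged 2.5 ± 0.533 TPM in running and 4.25 ± 1.34 TPM in sedentary libraries, Jun 125 ± 26.2 TPM in running and 145 ± 19.2 TPM in sedentary libraries, and Nr4a1 8.10 ± 1.45 TPM in running and 10.8 ± 1.80 TPM in sedentary libraries (SD, n = 6 each). Each of these 3 was lower in 5 of 6 letters, with limma adjusted p = 0.223, 0.253 and 0.259.

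In insulin, IGF and mTOR signalling 15 of 38 genes had a positive difference (median −0.02), with 2 lower without overlap (5.26%, beside 2.58% of all genes). Those were Igf1r, the receptor of insulin-like growth factors, at 19.8 to 35.6 TPM (median 34.2) in running and 36.8 to 44.1 TPM (median 39.9) in sedentary libraries, and Rps6kb2, a kinase of ribosomal protein S6, at 14.1 to 26.2 TPM in running and 19.2 to 36.0 TPM in sedentary libraries. The arms of Igf1r did not overlap across days (−0.36 ± 0.12, SE, limma adjusted p = 0.224). Igfbp5, a binding protein of these factors, was lower in all 6 letters in the IP (−0.30 ± 0.09) and in all 6 in the input (−0.62 ± 0.12, SE), where it averaged 105 ± 28.4 TPM in running and 159 ± 29.2 TPM in sedentary libraries (SD, n = 6 each). Among FGF, VEGF and EGF genes 10 of 41 were positive (median −0.10), 0 were higher and 0 lower without overlap, and the receptor genes Fgfr2 and Fgfr3 were lower in all 6 letters (−0.36 ± 0.12 and −0.34 ± 0.13, SE, limma adjusted p = 0.223 and 0.269).

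BMP signalling is known to hold adult neural stem cells in a resting state. Its median difference was −0.11 (−0.05 after scaling), with 12 of 46 genes positive, and 6 lower and 1 higher without overlap, where 2.58% and 0.336% of all genes were. Id4, a helix-loop-helix inhibitor that BMPs induce and a stem cell marker, stood at 115 and 163 TPM in running libraries against 188 and 203 TPM in sedentary libraries at day 11. On day 18 there were 143 and 133 TPM in running libraries, beside 193 and 162 TPM in sedentary libraries, and the day 27 values 109 and 120.2 TPM in running libraries, beside 171 and 146 TPM in sedentary libraries. The difference was −0.44 ± 0.10 (SE, limma adjusted p = 0.145), and Id4 was also lower in 5 of 6 input letters. The activin receptor gene Acvr2b ranged from 4.83 to 8.87 TPM in running and from 10.8 to 12.4 TPM in sedentary libraries, without overlap across days (−0.61 ± 0.15, SE, limma adjusted p = 0.161). Bmp1, a protease that processes collagens and TGF-beta binding proteins, was lower on all 3 days (−0.34 ± 0.09), and Acvr1c, described above, was the higher gene.

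Hedgehog signalling, which maintains neural stem cells, had a median of −0.24 (−0.19 after scaling) and 3 of 15 genes positive. Without overlap 3 were lower (20.0%, beside 2.58% of all genes). These were Cdon and, named because the count is small, Evc and Evc2, a pair of proteins that pass the signal on in the cilium. Ptch1, both receptor and target of the pathway, averaged 43.3 ± 8.12 TPM in running and 56.1 ± 6.33 TPM in sedentary libraries, and the co-receptor Gas1 12.5 ± 1.96 TPM in running and 17.5 ± 3.17 TPM in sedentary libraries (SD, n = 6 each). Both were lower in 5 of 6 letters. The co-receptor Cdon and the transducer Smo were lower in all 6 (−0.35 ± 0.12 and −0.31 ± 0.13, SE, limma adjusted p = 0.235 and 0.301). Markers of stem cells and astrocytes stood lower in the same comparison, with medians of −0.31 and −0.33, and their part in these differences was not tested.

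Clock genes, which time daily rhythms, had a median of −0.20, with 2 of 18 positive and 3 lower without overlap (16.7%, beside 2.58% of all genes). These were Per3, Hlf and, named because the count is small, Per2 (−0.31 ± 0.12, SE, limma adjusted p = 0.285). After scaling the median was −0.13, with letter f at 0.04. Per3, a period gene, stood at 28.8 and 38.4 TPM in running libraries against 45.8 and 54.8 TPM in sedentary libraries at day 11. The day 18 values were 33.4 and 43.7 TPM in running libraries, beside 63.5 and 63.6 TPM in sedentary libraries, and the day 27 values 32.5 and 49.4 TPM in running libraries, beside 55.5 and 62.7 TPM in sedentary libraries. Hlf and Tef, transcription factors of the PAR bZIP family under clock control, averaged 30.9 ± 5.32 and 121 ± 32.8 TPM in running libraries and 43.9 ± 3.42 and 150.2 ± 20.4 TPM in sedentary libraries (SD, n = 6 each). The differences were −0.61 ± 0.12 for Per3, −0.51 ± 0.11 for Hlf and −0.35 ± 0.11 for Tef (SE, limma adjusted p = 0.133, 0.142 and 0.21). Tef was lower in 5 of 6 letters, and its arms overlapped at day 27, where its difference was −0.04. Per3 and Hlf were lower in all 6 letters of the input too, at −0.45 ± 0.13 and −0.62 ± 0.12 (SE), and 2 of 18 clock genes were positive there. The hour at which each mouse was killed is not given in the labels, and its part was not tested.

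Clock factors of the Clock and Bmal1 pair bind the E-box CACGTG, which reads the same on both strands. Of 17 clock genes with an entry, 5 (29.4%) held it in at least 1 promoter window, as did 8.09% of all genes. Tef held it at both of its starts, and the second is shown as the example among the genes described (GRCm38.p6 chr15:81811164-81811463, plus strand), with the E-box in capitals. The windows of Per3 and Hlf did not hold these letters.
Tef: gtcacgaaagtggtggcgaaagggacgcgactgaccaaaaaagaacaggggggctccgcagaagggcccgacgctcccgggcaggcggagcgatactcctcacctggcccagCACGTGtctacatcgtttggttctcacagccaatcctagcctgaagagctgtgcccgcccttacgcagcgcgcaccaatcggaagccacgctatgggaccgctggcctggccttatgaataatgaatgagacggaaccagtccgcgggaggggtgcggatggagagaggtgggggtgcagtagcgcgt

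Neuropeptide genes and their receptors were mixed, with 18 of 43 positive and a median of −0.03 that became 0.03 after scaling. Beside Penk, Chga, a protein of dense core vesicles, was higher in all 6 letters, at 91.1 to 193 TPM (median 139.5) in running and 89.1 to 113 TPM (median 95) in sedentary libraries (0.48 ± 0.13, SE, limma adjusted p = 0.173). Gal, the galanin precursor, was higher at days 11 and 18, with 20.4 and 25 TPM in running libraries, beside 17.8 and 14.5 TPM in sedentary libraries, at the first of these days and 27.5 and 17.5 TPM in running libraries, beside 8.72 and 10.0 TPM in sedentary libraries, at the other, and its arms overlapped at day 27. The somatostatin receptor gene Sstr3 was lower in all 6 letters (−0.50 ± 0.15, SE, limma adjusted p = 0.21).

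RNAs retained in the nucleus had 1 of 14 members positive and a median of −0.29 (−0.22 after scaling). Without overlap 3 were lower (21.4%, beside 2.58% of all genes), which were Neat1, Miat and, named because the count is small, Snhg11. Neat1, the scaffold of paraspeckles, stood at 18.6 and 29.8 TPM in running libraries against 30.5 and 40.7 TPM in sedentary libraries at day 11. Day 18 gave 31.8 and 47.8 TPM in running libraries, beside 56 and 54.7 TPM in sedentary libraries, and the day 27 values 32.3 and 40.3 TPM in running libraries, beside 50.4 and 57.4 TPM in sedentary libraries. Miat, another long nuclear RNA, ranged from 142 to 333 TPM in running and from 212 to 361 TPM in sedentary libraries, and Ftx, a non-coding RNA of the X inactivation centre, from 77.5 to 131 TPM in running and from 107 to 139.6 TPM in sedentary libraries. These RNAs are not known to be translated. In the input the median of the list was −0.10, Neat1 and Miat had differences of 0.05 and 0.05, and Ftx was lower in all 6 letters. Zinc finger genes had 70 of 346 positive and a median of −0.09, beside −0.07 for all genes, and −0.03 after scaling. Among them Zfp112 and Zfp800 were lower in all 6 letters (−0.38 ± 0.11 and −0.33 ± 0.10, SE, limma adjusted p = 0.21 for each).

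After median-of-ratios scaling 9 lists lay above 0 in all 6 letters, and these were chosen for description after their values were seen. After scaling 8424 of all 17282 genes (48.7%) were positive. The medians after scaling were 0.17 for the proteasome (40 of 47 positive), 0.11 for translation factors (58 of 69), 0.11 for chaperones (56 of 77), 0.12 for citrate cycle enzymes (23 of 31), 0.10 for splicing factors (49 of 67), 0.13 for actin regulators (33 of 43), 0.14 for kinesins and dyneins (39 of 55), 0.21 for cholesterol synthesis (15 of 20) and 0.22 for clustered histones (52 of 64). On the deposited TPM each of these lists was below 0 in letter a, and their medians over the days ran from 0.04 for splicing factors to 0.15 for histones. Eif1ax, an initiation factor that helps to find start codons, was higher without overlap on all 3 days, at 63.8 to 90.3 TPM (median 81.7) in running and 57.5 to 81.7 TPM (median 63.2) in sedentary libraries. The proteasome subunits Psma7 and Psmd4 were higher in all 6 letters (0.31 ± 0.12 and 0.28 ± 0.12, SE, limma adjusted p = 0.272 and 0.301). Inf2, a formin that builds actin filaments, averaged 96.1 ± 38 TPM in running and 59.3 ± 12.7 TPM in sedentary libraries (SD, n = 6 each), and was higher at days 18 and 27 while its arms overlapped at day 11 (0.60 ± 0.10, SE, limma adjusted p = 0.0635).

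Of the extracellular matrix genes 43 of 122 were positive after scaling, beside the same 8424 of 17282, with a median of −0.08. On the deposited TPM the median was −0.13, and 8 (6.56%) were lower without overlap, beside 2.58% of all genes. Bcan, the brain proteoglycan brevican, stood at 64.1 and 81.7 TPM in running libraries against 98.8 and 104 TPM in sedentary libraries at day 11. On day 18 there were 84.9 and 87.6 TPM in running libraries, beside 144 and 123 TPM in sedentary libraries, and the day 27 values 70.1 and 73.7 TPM in running libraries, beside 109 and 93.4 TPM in sedentary libraries. Its arms did not overlap across days (−0.53 ± 0.09, SE, limma adjusted p = 0.0635). Gpc5, a glypican, and Col6a1, a chain of collagen VI, were lower on all 3 days as well (−0.40 ± 0.10 and −0.55 ± 0.15, SE). Fatty acid oxidation genes had 9 of 33 positive after scaling and a median of −0.09, with Hadhb, a subunit of the trifunctional enzyme, lower on all 3 days on the deposited TPM (−0.31 ± 0.11, SE, limma adjusted p = 0.253) but not after scaling.

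**Figure D5:**
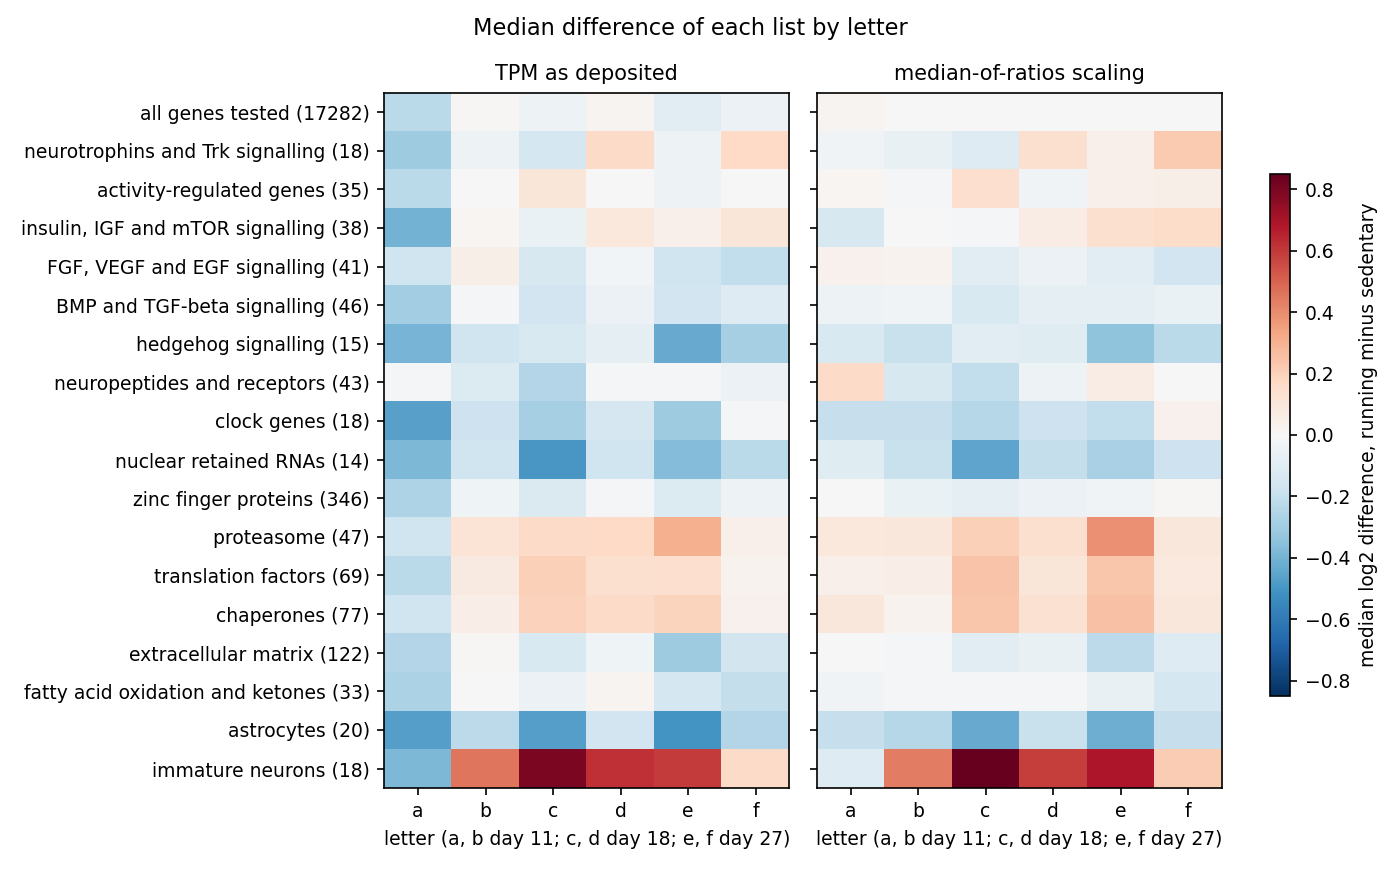
Median log2 difference, running minus sedentary, of 15 function lists, 2 cell type lists and all genes in each letter, on the deposited TPM (left) and after median-of-ratios scaling (right), with the number of tested genes in brackets. Hedgehog genes, nuclear retained RNAs and astrocyte markers are below 0 in all 6 letters of both panels, and proteasome genes are above 0 in all 6 letters of the right panel.

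Markers of cell types differed in the same comparison. Of 20 astrocyte markers 1 was positive, with a median of −0.33 (−0.27 after scaling), below 0 in all 6 letters under both scalings, and 3 were lower without overlap. These were Gfap, the filament protein of astrocytes, Aldoc and Clu, named because the count is small. Of 15 neural stem cell markers 1 was positive (median −0.31, and −0.24 after scaling), with summed levels of 994 to 1725 TPM in running and 1256 to 1826 TPM in sedentary libraries. Of 18 immature neuron markers 18 were positive in the mean of the days, with a median of 0.35, but by day the median was −0.01, 0.73 and 0.37. Calb2 alone was higher without overlap on all 3 days (5.56%, beside 0.336% of all genes). Of 16 oligodendrocyte markers 2 were positive (median −0.22), and their sum was 956 to 1312 TPM in running and 1246 to 1484 TPM in sedentary libraries. Microglia and endothelial markers, 1 of 16 and 1 of 15 positive in the mean of the days, summed to 148 to 264 and 90.8 to 148 TPM in running libraries and to 210.4 to 289 and 112 to 194 TPM in sedentary libraries. By day their medians were 0.05, −0.46 and −0.26 for microglia and 0.09, −0.17 and −0.43 for endothelial markers. At day 11, 9 of 16 and 9 of 15 were positive, and after scaling 1 and 5 were positive in the mean of the days. No member of the lists of this paragraph was at 0 in any IP library. Id4 is itself on the stem cell list and Fgfr3 on the astrocyte list. The part of these markers in the differences of Thbs4, Abca8a, Bcan, Calb2 and the other genes named above was not tested.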

How the data were processed

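RNA of ribosome precipitates and of input tissue was sequenced from libraries made, per the labels, with a stranded total RNA kit. The authors deposited TPM values per gene, and the submitters' processing notes name RSEM and mm10. Which RSEM version, aligner, annotation or strandedness was used is not given in the sources used here. TPM have 1 fixed total per library and carry no depth, so the precision of a low value is unknown. Of 23306 gene names, 21619 matched 1 GENCODE M21 gene, and 27 names had been turned into dates.

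Groups came from the titles. Genes with a mean of at least 1 TPM over the 12 IP libraries were tested on log2(TPM + 1) with limma 3.58.1 (R 4.3.3; 1 term per day and arm, trend and robust options), as the mean of the 3 daily differences, per day and between days, with Benjamini-Hochberg adjustment over all genes. IP minus input was fitted on all 24 libraries, without pairing IP and input libraries by letter. The code was checked on simulated data. Letters shared by the arms were taken as names: same-letter deviations correlated at 0.237 on day 11, 0.0465 on day 18 and 0.0714 on day 27.

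Genes named were those past the threshold, the 15 largest differences in each direction among genes without overlap with at least 5 TPM in the higher arm, up to 4 members of lowest p per list, and the 3 of lowest p for IP minus input, leaving out unnamed gene models. Genes said to be named because a count is small, and the lists described after scaling, were chosen after their values were seen. The comparison, members and lists were chosen with earlier results of these data known.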

Additional observations from a re-analysis of the deposited data

Results flagged for a closer look

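Of 78 groups of libraries checked for an outlying member, 3 had one, where chance gives about 1 in 20. Running library a had Rpph1 at 17.36% of its TPM, far above the other running IP libraries (4.58 to 6.66%). Sedentary library b had the unnamed gene model Gm20594 at 2.627% of its TPM, against 1.91 to 2.15% in the other sedentary IP libraries. Tmem243 stood at 3.20 TPM in running library d, against 8.87 to 11.7 TPM in the other running IP libraries. The running effect on Snora16a differed between the days (limma F test, adjusted p = 0.00702), with −0.97 at day 11, −0.01 at day 18 and −3.33 at day 27.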

How the results depend on the processing

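TPM without depth, a pair of libraries per arm and day, and running library a limit these results most. Of the values of single genes and lists under the alternatives, 2829 kept their direction and side of the threshold or moved little, 92 newly passed, 4 no longer passed and 1 turned. Those 4 were all of Snora16a. The gene that turned was Dynlt1b, at −0.061 without day 27. The cause was not tested for any of these changes.

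Genes past the threshold in the mean of the days numbered 3 with median-of-ratios scaling, 3 with library weights, 11 with a mean of at least 5 TPM, 8 with all 24 libraries in the fit, 0 without day 11, 2 without day 18, 0 without day 27 and 0 without both letter a libraries of day 11. At day 18 the count was 1 with log2(TPM + 0.1), 1 with library weights and 2 without both letter a libraries. At day 27 it was 1 with log2(TPM + 0.1), 2 with at least 5 TPM, 3 with median-of-ratios scaling and 0 with all 24 libraries. The count for the difference between the days was 3 with no filter, and that for IP minus input was 204 without day 11. Median-of-ratios scaling gave 170 higher genes without overlap on all 3 days, and 957 higher and 945 lower genes in all 6 letters. Without both letter a libraries of day 11, 977 were higher and 938 lower without overlap, and 1735 were higher in all letters left.

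With 1 library left out at a time, the lone library being assumed to vary like the other groups, the counts ran from 1 to 22 in the mean of the days, 0 to 2 at day 11, 0 to 9 at day 18, 2 to 15 at day 27, 1 to 7 between the days and 0 to 1 for IP minus input. Genes without overlap on all 3 days ran from 69 to 554 higher and from 488 to 1100 lower, and genes of 1 sign in all letters from 301 to 1734 higher and from 1832 to 2490 lower.

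With the library letter as a replicate block 440 genes passed in the mean of the days, 125 higher and 315 lower, with 1 at day 11, 18 at day 18, 47 at day 27, 36 between the days and 0 for IP minus input. The labels do not say that letters mark pairs.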

Other observations

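Growth cone and microtubule genes had the highest median of the 64 function lists, 0.20 (0.27 after median-of-ratios scaling), with 33 of 40 members positive, and it was below 0 in at least 1 letter under both scalings (lowest −0.32 on the deposited TPM). Nuclear genes of oxidative phosphorylation had 66 of 84 positive and a median of 0.10, and cytosolic ribosomal proteins 39 of 83 and −0.01. Small nucleolar RNAs had 10 of 28 positive and a median of −0.35, with 21 of 28 listed at 0 in at least 1 IP library. Dividing cell markers had 16 of 20 positive and a median of 0.11, and progenitor and neuroblast markers 10 of 13 and 0.22, with medians by letter from −0.66 to 0.68. No member of these lists other than Snora16a passed limma's test in the mean of the days.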
